A study of Mus musculus with 8 samples.

Results

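Markers of 3 non-parenchymal cell types of the liver were followed across sex and Bcl6 genotype: 14 genes of endothelial cells (Pecam1, Cdh5, Kdr, Tek, Tie1, Vwf, Eng, Emcn, Egfl7, Stab1, Stab2, Lyve1, Fcgr2b and Clec4g), 10 of hepatic stellate cells (Pdgfrb, Pdgfra, Des, Acta2, Reln, Ngfr, Hand2, Lhx2, Gfap and Vim) and 8 of cholangiocytes, the epithelial cells of the bile ducts (Krt7, Krt19, Epcam, Sox9, Spp1, Cftr, Muc1 and Prom1). The genes were taken by symbol from marker lists and no measured value entered the rule. The lists were, however, chosen with earlier results of these data known. Probes of the genes were found through the RefSeq accession printed for each array probe. All 32 had a probe. Of these, 31 were bright enough to be tested, among 26551 genes and unnamed transcripts tested in all. The exception was Muc1, a membrane mucin, whose only probe was well above background on 2 of 8 arrays, with log2 values between -5.09 and -3.67.

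RNA came from whole liver of mice aged 10 to 11 weeks, in 4 groups of n = 2 arrays: wild-type males, wild-type females, and males and females with a liver-specific Bcl6 deficiency, labelled knockout. Bcl6 is a transcriptional repressor with zinc fingers, known above all from germinal centre B cells. The sources used here do not give the Cre driver, the floxed allele, the strain or the cells in which the gene was deleted. They also do not say that the 2 arrays of a group are of separate animals, so the p-values cover only the spread between these arrays. Since the RNA is from bulk tissue, fewer cells of a type and less RNA per cell cannot be told apart.

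Liver sinusoids are lined by fenestrated endothelial cells that take up waste macromolecules through scavenger receptors, while larger vessels carry a conventional endothelium rich in von Willebrand factor. Stellate cells lie between sinusoidal endothelium and hepatocytes, store vitamin A, and turn into contractile, matrix-producing cells after injury. Cholangiocytes line the bile ducts, keep keratins of simple epithelia and modify bile by secretion.

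Each level below is the log2 of the processed array signal relative to that array's 75th percentile, which lay between 127 and 158 signal units. Each difference is between group means of these levels, tested with limma over all 8 arrays, and "called" means an adjusted p (Benjamini-Hochberg over all 26551) below 0.05. Between 33603 and 36377 spots per array were well above background and 0 were saturated. All arrays lay on 1 slide, females in row 1 and males in row 2, and row cannot be told apart from sex. Wild-type males lay in columns 1 and 4 and knockout males in columns 2 and 3. Outer or inner column thus cannot be told apart from genotype in males. Wild-type females lay in columns 2 and 4 and knockout females in columns 1 and 3. The knockout minus wild type difference of the single Bcl6 probe was 0.81 ± 1.06 (SE) for males and 1.11 ± 1.06 for females, with limma's adjusted p at 0.676 and 0.556. The sources used here do not say where this probe lies in relation to the deletion, so it checks no genotype label, and directions follow the labels.

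The labelled tissue and cell types were checked first. All 20 hepatocyte markers listed were bright enough to be tested, and the linear signals of their probes summed to 9910 to 12100 times the array's 75th percentile. The 14 endothelial members were each well above background on all 8 arrays. So were 8 of 10 stellate members, the exceptions being Des on 7 arrays and Gfap on 4. Among cholangiocyte members, only Krt19, Sox9 and Spp1 were. Cftr was well above background on 7 arrays, Krt7 on 6, Prom1 on 5 and Epcam on 4, so the biliary values are the least secure of the 3 lists. Osteopontin, the product of Spp1, is also made by other liver cells, and vimentin (Vim) by most mesenchymal and blood cells.

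The first comparison set knockout against wild type in males. Of the 14 endothelial members, 3 rose (Vwf, Lyve1 and Stab2) and 0 fell. Of the 10 stellate members 1 rose, Pdgfrb, and of the 7 cholangiocyte members tested 1 rose, Prom1. Over all genes tested, 5.77% were called higher and 4.93% lower in male knockout. The median difference was 0.24 for endothelial, 0.34 for stellate and 0.15 for cholangiocyte members, against -0.04 for all genes. The difference was above 0 in 13 of 14 endothelial, 9 of 10 stellate and 5 of 7 cholangiocyte members, and in 45.5% of all genes. Both knockout arrays lay above both wild-type arrays for 12 endothelial, 7 stellate and 2 cholangiocyte members, where 27.4% of all genes did so, a share close to that of the cholangiocyte members.

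In females 2 members were called. Vwf rose among the endothelial and Prom1 among the cholangiocyte members, 0 stellate members were called by limma (3 at an unadjusted p below 0.05), and 0 members fell. Over all 26551 genes, 6612 had an unadjusted p below 0.05 in females, a share near the stellate 3 of 10. Over all genes, 3.48% were called higher and 2.45% lower in female knockout. The medians were 0.08, 0.16 and 0.14 for endothelial, stellate and cholangiocyte members, against 0.00 for all genes. The difference was above 0 in 11 of 14, 7 of 10 and 4 of 7 members, and in 50.2% of all genes. Both knockout arrays lay above both wild-type arrays for 6, 3 and 3 members of the lists, with 28% of all genes as background, so the stellate share of 3 of 10 was near the background.

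**Figure D1:**
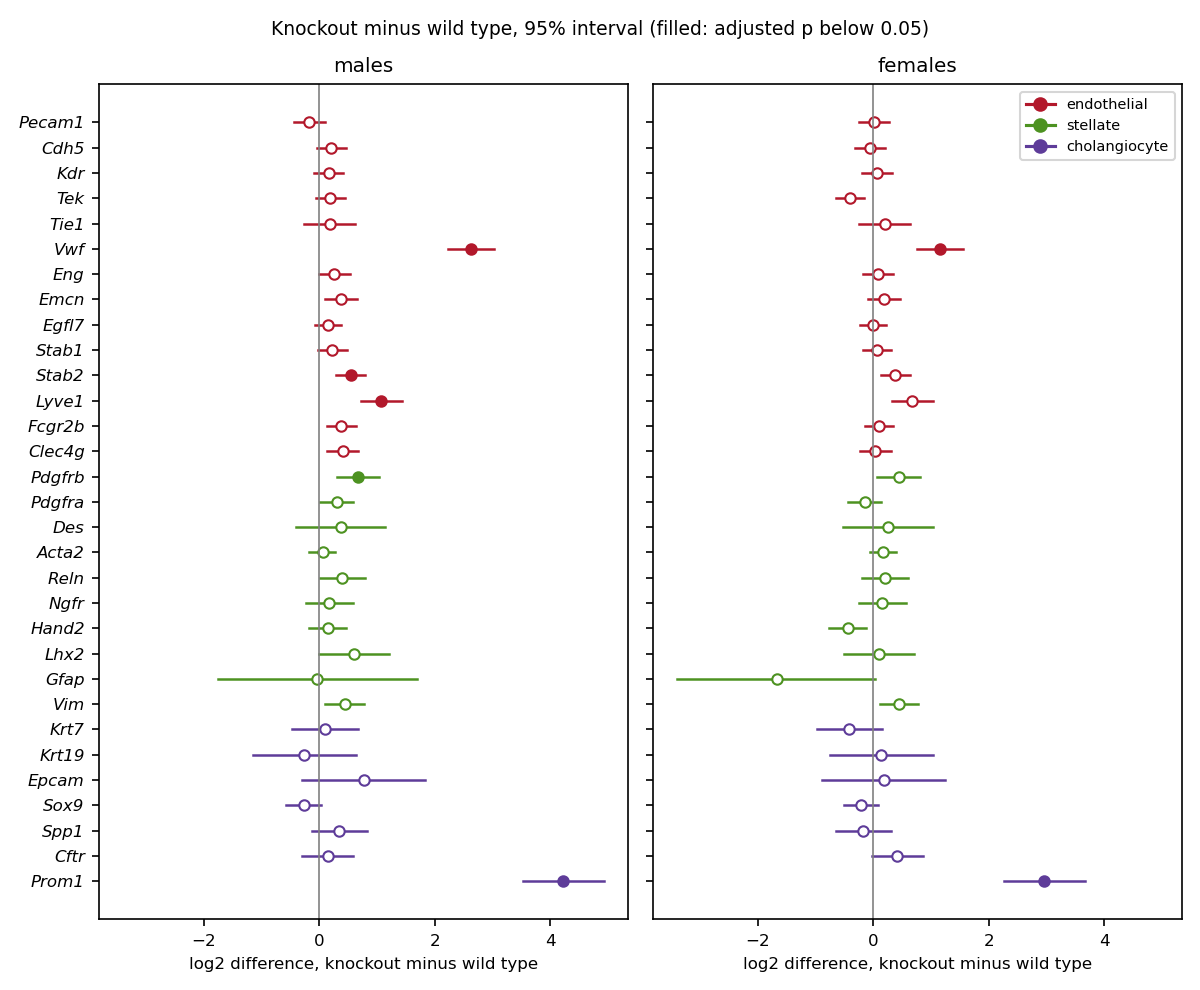
Difference on the log2 scale (horizontal axis, knockout minus wild type) for each of the 31 members tested, males on the left and females on the right, with 95% intervals from limma; filled points have an adjusted p below 0.05. Vwf and Prom1 stand to the right in both panels, and most other members lie within 0.5 of 0.

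Vwf, the adhesive glycoprotein that endothelial cells store and release for platelet binding, carried the largest endothelial difference. Its level was 1.22 and 1.12 on the male wild-type arrays, 3.6 and 4.01 on the male knockout arrays, 1.84 and 1.81 on the female wild-type arrays, and 3.1 and 2.86 on the female knockout arrays. The groups did not overlap, and both knockout groups stood above both wild-type groups. The rise was 2.63 ± 0.16 (SE) in males, 6.20-fold (limma, adjusted p = 0.000669), and 1.15 ± 0.16 in females, 2.22-fold (adjusted p = 0.0176). The male rise exceeded the female one by 1.48 ± 0.23, a difference that was not called (adjusted p = 0.148). The male call held in each of the 8 fits that left out 1 array. The female call was lost without female wild-type replicate 2 (adjusted p = 0.0648) and without female knockout replicate 1 (0.0969) or 2 (0.0562), and also without a filter on dim probes (0.0602) or with only the female groups fitted (0.0608).

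Platelets also carry this protein, so megakaryocyte and platelet genes were read beside it. Of 6 platelet genes tested (of 8 listed), 0 were called in either sex by limma and 1 in each sex had an unadjusted p below 0.05. Over all 26551 genes, 7228 in males and 6612 in females had such a p. Their summed linear signal was 1.1 to 1.16 in wild-type males, 1.57 to 1.60 in knockout males, 1.09 to 1.45 in wild-type females and 1.57 to 1.59 in knockout females. Itga2b and Gp5 had no probe bright enough to test. The summed platelet level was thus higher on the knockout arrays of both sexes, and its part in the Vwf result was not tested.

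The scavenger and uptake receptors of sinusoidal endothelium gave the other endothelial calls. Lyve1, a hyaluronan receptor, read -1.06 and -0.71 in wild-type males and 0.23 and 0.14 in knockout males, a rise of 1.07 ± 0.15 (2.10-fold, limma, adjusted p = 0.00997). In females it read -0.70 and -0.52 against 0.09 and 0.04, without overlap, and the difference of 0.67 ± 0.15 just missed the threshold (adjusted p = 0.0546). The male call was lost without male knockout replicate 1 (adjusted p = 0.0666) or 2 (0.0602).

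Stab2, a clearance receptor for hyaluronan and other glycosaminoglycans, read 4.32 and 4.20 in wild-type males and 4.75 and 4.86 in knockout males. That rise of 0.55 ± 0.11 was 1.46-fold (limma, adjusted p = 0.0291). Female values were 4.63 and 4.53 against 4.92 and 5.01, a difference of 0.38 ± 0.11 (adjusted p = 0.0945). The 4 groups kept apart from each other on every array, in the order male wild type, female wild type, male knockout, female knockout. A second Stab2 probe gave 0.58 in males and 0.38 in females. The Stab2 call was lost in 6 of the 8 fits that left out 1 array, among them each fit without a male array, and also without a filter on dim probes or with only the male groups fitted, with an adjusted p of at most 0.16 over all alternatives tried.

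Bcl6 binds a motif that overlaps the one bound by STAT5, so the promoter windows of called members were read for both. The 250 bases before the annotated Stab2 start (chr10:87007943-87008192, minus strand, RefSeq, GRCm38.p6) are shown because Stab2 is the called endothelial member with a window in the table used. Capitals would mark TTCNNNGAA, the STAT5-type motif, on either strand, and none occurred.
Stab2: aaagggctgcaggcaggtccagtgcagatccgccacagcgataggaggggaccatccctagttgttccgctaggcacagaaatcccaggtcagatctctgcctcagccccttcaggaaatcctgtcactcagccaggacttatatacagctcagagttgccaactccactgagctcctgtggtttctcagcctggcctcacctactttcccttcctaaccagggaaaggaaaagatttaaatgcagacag
Of the 32 members, 25 had a window, which runs to 50 bases past the start, and 1 of them held TTCNNNGAA: Gfap, as TTCCAGGAA beginning 2 bases before the start. Over all 32851 windows of 300 bases, 8.30% held that motif. The BCL6-type motif TTCCTAGAA, which is contained in the first, was in 0 of the 25 and in 0.411% of all windows. These letters are a description of the windows and not of binding.

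**Figure D2:**
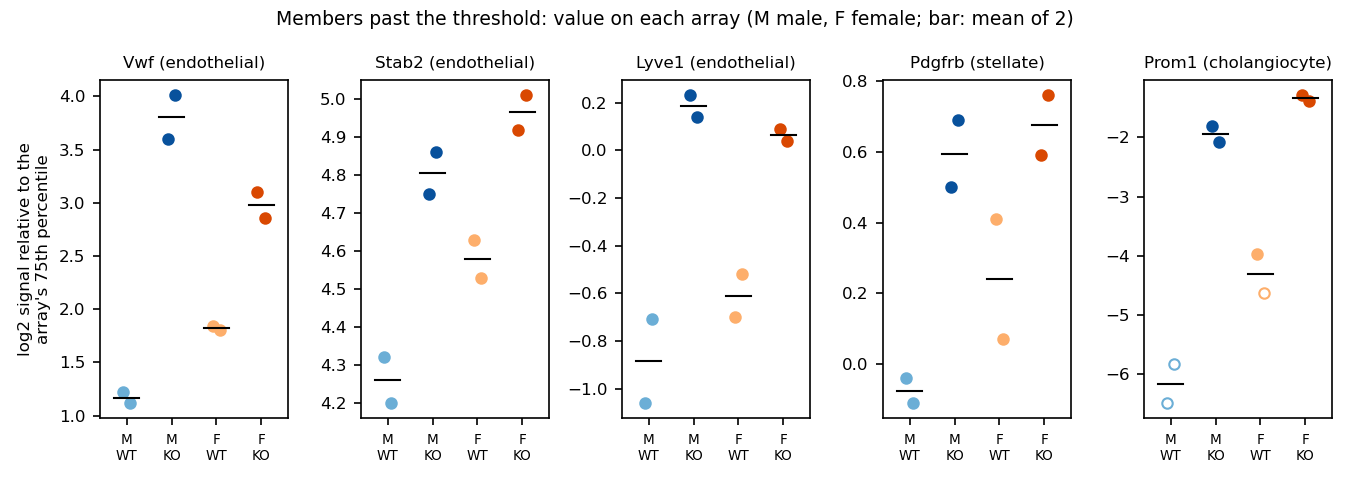
Log2 signal relative to the array's 75th percentile (vertical axis, a scale of its own in each panel) on each of the 8 arrays for the 5 called members, males in blue and females in orange, wild type (WT) light and knockout (KO) dark; the bar is the mean of 2 arrays, and an open circle is an array on which the probe was not well above background. Both knockout arrays of each sex lie above both wild-type arrays of that sex in every panel, and male wild type is the lowest group in every panel.

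The remaining 11 endothelial members were not called in either sex. For the sinusoidal receptors Fcgr2b, an inhibitory Fc receptor, and Clec4g, a C-type lectin, the male differences were 0.38 ± 0.10 (limma, adjusted p = 0.0677) and 0.41 ± 0.11 (adjusted p = 0.071). Fcgr2b read 1.93 and 1.96 in wild-type males against 2.38 and 2.28 in knockout males, with female arrays at 2.26 to 2.46. Clec4g read 5.45 and 5.43 against 5.84 and 5.85, with female arrays at 5.65 to 5.87. For both genes the wild-type males stood alone, below the 6 other arrays. The female differences were 0.10 ± 0.10 and 0.04 ± 0.11. The scavenger receptor Stab1 gave 0.23 ± 0.10 in males and 0.07 ± 0.10 in females.

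The pan-endothelial members were not called either. Among adhesion molecules, the junctional cadherin Cdh5 gave 0.21 ± 0.10 in males and -0.05 ± 0.10 in females, and the sialomucin Emcn gave 0.37 ± 0.11 (adjusted p = 0.095) and 0.18 ± 0.11. Pecam1 was the 1 endothelial member below 0 in males, at -0.17 ± 0.11. Among growth factor receptors, Kdr, the main VEGF receptor, gave 0.17 ± 0.11 and 0.06 ± 0.11, the TGF-beta co-receptor Eng gave 0.26 ± 0.11 and 0.09 ± 0.11, and Tie1 gave 0.18 ± 0.18 and 0.20 ± 0.18. The secreted factor Egfl7 gave 0.15 ± 0.09 and -0.01 ± 0.09. With intervals such as -0.04 to 0.47 for Cdh5 in males, small changes in either direction are within the error of 2 arrays per group.

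The difference of Tek, the angiopoietin receptor, had opposite signs in the sexes. It read -1.57 and -1.74 in wild-type males and -1.45 and -1.48 in knockout males, but -1.15 and -1.18 in wild-type females and -1.54 and -1.60 in knockout females. The wild-type females stood above all 6 other arrays. The difference was 0.19 ± 0.10 in males and -0.40 ± 0.10 in females (limma, adjusted p = 0.0774), and the interaction of 0.59 ± 0.14 was not called (adjusted p = 0.351).

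Other endothelial genes were read from lists of the same cell type. The background for these and all later lists was the share of all genes called. It was 5.77% higher and 4.93% lower in knockout males, and 3.48% and 2.45% in knockout females. Of 23 further sinusoidal and vascular genes tested (of 24 listed), 3 rose in knockout males, with a median of 0.30 and 19 of 23 differences above 0. Those were Cd36, a fatty acid translocase that hepatocytes and macrophages also make (2.55 ± 0.45, limma, adjusted p = 0.0223), Gpr182, an atypical chemokine receptor of sinusoidal endothelium (0.59 ± 0.12, adjusted p = 0.0312), and Cd34, a sialomucin of capillary endothelium and haematopoietic progenitors (0.94 ± 0.20, adjusted p = 0.0369). Gpr182 read 3.18 and 3.26 in wild-type males and 3.69 to 3.91 on the 6 other arrays. In females 0 of the 23 were called by limma, 3 had an unadjusted p below 0.05 (6612 of all 26551 genes did), and the median was 0.07. All 3 male calls were lost in at least 4 of the 8 fits that left out 1 array.

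Among 13 genes of zonated endothelial signalling, 2 rose in both sexes. Efnb2, the arterial ephrin ligand, read -1.03 and -1.07 in wild-type males, -0.57 and -0.82 in wild-type females, and 0.35 to 0.39 on all 4 knockout arrays. Its rise was 1.41 ± 0.11 in males and 1.08 ± 0.11 in females (limma, adjusted p = 0.00168 and 0.00704). The female call was lost with only the female groups fitted and without female knockout replicate 1, with an adjusted p of at most 0.0676. Hey1, a transcriptional repressor induced by Notch, rose by 1.31 ± 0.19 (adjusted p = 0.0119) and 1.09 ± 0.19 (adjusted p = 0.0297). Its probe was dim in wild-type males, at -3.98 and -4.02, and well above background on 1 of these 2 arrays. The Hey1 calls were lost in 3 (males) and 7 (females) of the 8 fits that left out 1 array, and the male call with normexp, where the difference was 0.27. The pericentral signals were not called: Wnt2 gave -0.37 in males and -0.79 in females (adjusted p = 0.0812), Wnt9b -0.10 and -0.66 (adjusted p = 0.0743), and Thbd 0.06 and -0.90 (adjusted p = 0.0873). The median of the 13 was 0.11 in males and -0.38 in females, with 9 and 3 of 13 differences above 0.

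Of the 13 angiogenic ligands tested (of 15 listed), Pdgfa, which signals through PDGF receptor alpha, rose in both sexes. It read 2.15 and 1.58 in wild-type males, 1.46 and 1.63 in wild-type females, and 4.0 to 4.11 on the 4 knockout arrays. The rise was 2.20 ± 0.19 in males and 2.50 ± 0.19 in females (limma, adjusted p = 0.00233 and 0.00219). Vegfc, a lymphangiogenic factor, rose in males by 0.43 ± 0.10 (adjusted p = 0.0474), a call lost in all 8 fits that left out 1 array. The ligands' median was 0.29 in males and -0.00 in females.

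Among stellate members, the call was a receptor. Pdgfrb, the receptor for PDGF-B on stellate cells and pericytes, read -0.04 and -0.11 in wild-type males, 0.50 and 0.69 in knockout males, 0.41 and 0.07 in wild-type females, and 0.59 and 0.76 in knockout females. Wild-type males were the lowest 2 arrays, and the genotypes did not overlap in either sex. The male rise was 0.67 ± 0.15, 1.59-fold (limma, adjusted p = 0.0432), and the female difference was 0.44 ± 0.15 (adjusted p = 0.146). This call was lost in 6 of the 8 fits that left out 1 array, among them every fit without a male array, and also without a filter on dim probes, with only the male groups fitted and with replicate number as a block, with an adjusted p of at most 0.203. The related receptor Pdgfra gave 0.31 ± 0.12 in males (adjusted p = 0.158) and -0.14 ± 0.12 in females.

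Cytoskeletal members were not called. Vim gave 0.44 ± 0.14 in males and 0.45 ± 0.14 in females (limma, adjusted p = 0.103 and 0.117), without overlap between genotypes in either sex. Acta2, the smooth muscle actin of activated stellate cells, gave 0.06 ± 0.09 and 0.17 ± 0.09, with all 8 arrays between 2.88 and 3.07. A second Acta2 probe ranged from 0.03 to 2.30 and its arrays overlapped between genotypes in both sexes, so the probes of this gene did not follow each other. Desmin (Des) gave 0.37 ± 0.32 and 0.26 ± 0.32. Gfap, an intermediate filament of quiescent stellate cells, was well above background on 1 of 2 wild-type male, 0 of 2 knockout male, 2 of 2 wild-type female and 1 of 2 knockout female arrays, and its female difference of -1.67 ± 0.70 had an adjusted p of 0.21.

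No transcription factor and no other surface or secreted stellate member was called. Lhx2, which restrains stellate activation, gave 0.60 ± 0.25 in males (adjusted p = 0.187 in limma). In females it gave 0.10 ± 0.25, with knockout arrays at -0.11 and 0.61. Hand2 gave 0.15 ± 0.13 and -0.44 ± 0.13 (adjusted p = 0.107). It read -2.08 and -2.16 in wild-type males, -1.94 and -2.0 in knockout males, -1.45 and -1.76 in wild-type females and -2.10 and -2.0 in knockout females, so the wild-type females stood alone at the top, as for Tek. Its interaction of 0.59 ± 0.18 was not called (adjusted p = 0.448). Reln, a secreted glycoprotein of quiescent stellate cells, gave 0.40 ± 0.16 and 0.21 ± 0.16, while its second probe gave -0.16 and -0.08. Ngfr, the low-affinity neurotrophin receptor, gave 0.17 ± 0.17 and 0.15 ± 0.17.

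Of 22 further stellate and pericyte genes tested (of 23 listed), 2 rose in males, 0 rose in females and 1 fell in females. Sod3, an extracellular superoxide dismutase, rose by 0.94 ± 0.11 in males and gave 0.46 ± 0.11 in females (limma, adjusted p = 0.00654 and 0.0727). Colec11, a soluble collectin, rose by 0.57 ± 0.12 in males (adjusted p = 0.0357). The Colec11 call was lost in 6 of the 8 fits that left out 1 array, without a filter on dim probes, with only the male groups fitted and with replicate number as a block (adjusted p at most 0.183), and the Sod3 call without male knockout replicate 2 (0.0556). Lrat, which makes the retinyl esters that stellate cells store, read -0.24 and -0.03 in wild-type females and -1.70 and -1.08 in knockout females and fell by 1.25 ± 0.24 (adjusted p = 0.0407). Its male difference was -1.01 ± 0.24 (adjusted p = 0.0526), also without overlap. The female Lrat call was lost in 7 of the 8 fits that left out 1 array. The list's median was 0.36 in males and 0.09 in females. Of 10 portal fibroblast, smooth muscle and mesothelial genes tested (of 13 listed), 1 rose in males, the microfibril protein Mfap4 (0.45 ± 0.10, limma, adjusted p = 0.0416). In females 0 were called by limma and 1 had an unadjusted p below 0.05, where 6612 of all 26551 genes did. The Mfap4 call was lost under the same alternatives as that of Colec11, with an adjusted p of at most 0.19.

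Prom1, a pentaspan membrane protein of biliary and progenitor cells, was the called cholangiocyte member. Its reported probe read -6.49 and -5.84 in wild-type males, -1.81 and -2.07 in knockout males, -3.98 and -4.63 in wild-type females, and -1.29 and -1.39 in knockout females. No wild-type male array and 1 of 2 wild-type female arrays was well above background, against all 4 knockout arrays, so Prom1 was tested only through the knockout groups. Against the lowest signal well above background on each wild-type male array, the male rise was at least 4.92-fold (measured difference 4.22 ± 0.29, limma, adjusted p = 0.000895). In females the rise was 2.96 ± 0.29, 7.81-fold (adjusted p = 0.00542). A second probe, well above background on 4 arrays, also read higher on both knockout arrays than on both wild-type arrays of each sex, and no fold is given for it. Both calls held in all 8 fits that left out 1 array. With normexp background correction and an offset of 50, which compresses dim signals, the differences shrank to 0.69 and 0.80 and were still called. The interaction of 1.26 ± 0.41 was not called (adjusted p = 0.474).

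Prom1 had 2 promoter windows in the table, on the minus strand of chromosome 5 in GRCm38.p6 (RefSeq), at chr5:44101737-44101986 and chr5:44094769-44095018. They are shown because Prom1 was called in both sexes, and each line is the 250 bases before 1 start, with capitals again reserved for TTCNNNGAA, which neither held.
Prom1 upstream start: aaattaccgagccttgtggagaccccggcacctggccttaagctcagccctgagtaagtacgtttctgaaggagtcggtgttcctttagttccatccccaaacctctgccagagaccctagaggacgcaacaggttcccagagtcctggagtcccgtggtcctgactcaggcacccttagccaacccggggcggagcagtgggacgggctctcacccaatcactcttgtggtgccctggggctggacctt
Prom1 downstream start: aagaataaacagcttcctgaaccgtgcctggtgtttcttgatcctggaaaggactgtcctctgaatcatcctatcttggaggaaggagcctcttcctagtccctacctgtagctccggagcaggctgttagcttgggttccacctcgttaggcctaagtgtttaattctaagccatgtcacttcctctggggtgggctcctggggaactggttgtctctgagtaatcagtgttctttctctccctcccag

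**Figure D3:**
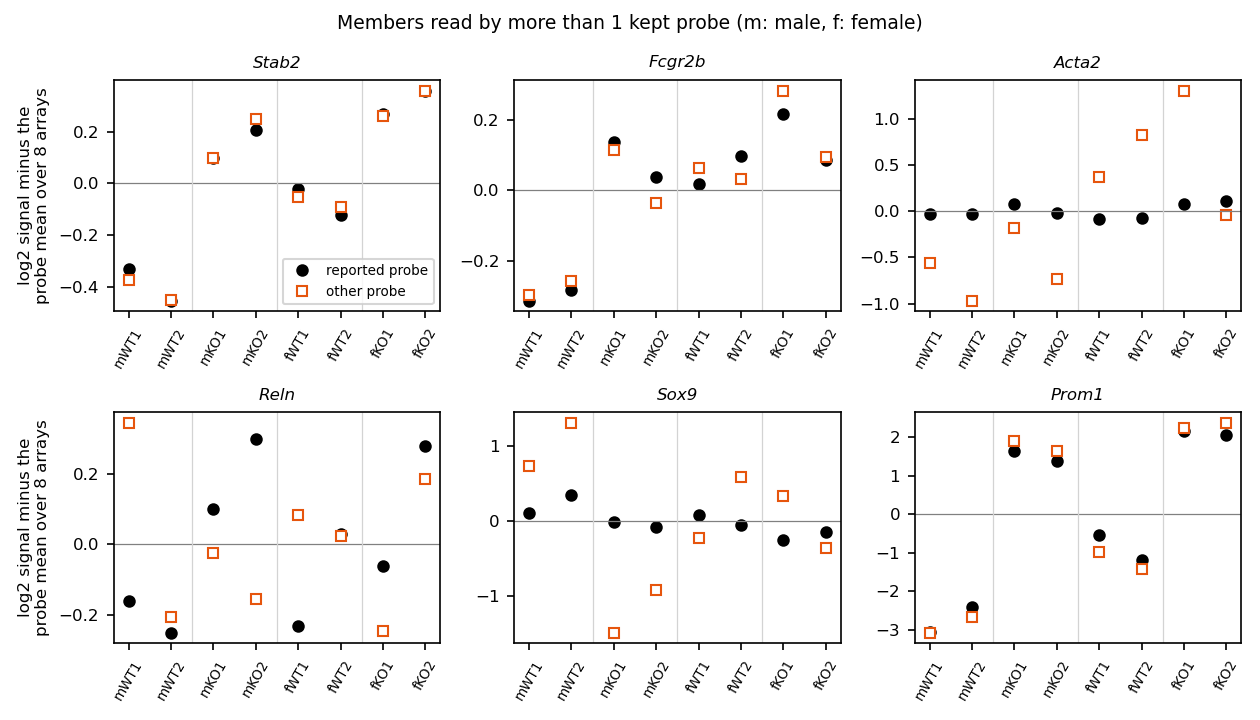
Log2 signal minus the probe's own mean over 8 arrays (vertical axis, a scale of its own in each panel) for the 6 members read by more than 1 kept probe, by array (m male, f female, WT wild type, KO knockout); black circles are the probe reported, orange squares the other. The 2 probes of Stab2, Fcgr2b and Prom1 follow each other, and those of Acta2, Reln and Sox9 do not.

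No other cholangiocyte member was called. Of the keratins of bile duct epithelium, Krt19 gave -0.26 ± 0.37 in males and 0.14 ± 0.37 in females, and Krt7 gave 0.10 ± 0.23 and -0.41 ± 0.23, with arrays that overlapped between genotypes in both sexes. Epcam, an epithelial adhesion molecule, gave 0.78 ± 0.44 and 0.19 ± 0.44. Its wild-type male arrays read -4.30 and -5.71, neither well above background, and without the first of them the male difference was 1.48 (limma, adjusted p = 0.0282). Spp1 gave 0.35 ± 0.19 and -0.17 ± 0.19, and the chloride channel Cftr gave 0.15 ± 0.18 and 0.42 ± 0.18 (adjusted p = 0.221).

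Sox9, a transcription factor of duct and progenitor cells, depended on the probe. The reported probe read -1.44 and -1.21 in wild-type males and -1.56 and -1.63 in knockout males (-0.27 ± 0.12, limma, adjusted p = 0.22). The second read -1.17 and -0.60 against -3.40 and -2.83, a difference of -2.23. With the mean of both probes the male difference was -1.25 and was called (adjusted p = 0.0177). In females the probes gave -0.21 and -0.19, but the second probe ranged from -2.27 to -1.32 there and its arrays overlapped between genotypes. Among knockout arrays, males minus females was 0.16 with the reported probe and -1.19 with the second.

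Of 20 further biliary genes tested (of 24 listed), 2 rose in males and 3 in females. Cp, the copper carrier ceruloplasmin that hepatocytes also secrete in quantity, rose by 1.89 ± 0.12 (limma, adjusted p = 0.000714) and 1.72 ± 0.12 (adjusted p = 0.00152). Elf3, an epithelial ETS factor, was well above background on no wild-type array, both male knockout arrays and 1 female knockout array. It was thus tested only through the male knockout group. Its rise was at least 1.84-fold in males (limma, adjusted p = 0.00233) and at least 1.57-fold in females (limma, adjusted p = 0.00501). Krt18, a keratin shared by hepatocytes and bile ducts, rose in females by 0.94 ± 0.13 (adjusted p = 0.0144) and gave 0.52 ± 0.13 in males (adjusted p = 0.0529). The female calls of Elf3, Krt18 and Cp were each lost under some alternative, with an adjusted p of at most 0.148, 0.0851 and 0.0664. The list's summed signal was 392 to 522 in wild type and 885 to 1000 in knockout. Most of that sum came from the probes of Cp and Krt18, which hepatocytes also express. In males the mean level of Cp was 7.27 in wild type and 9.15 in knockout, and that of Krt18 7.49 and 8.01. The median difference of the 20 was -0.01 in males and 0.32 in females.

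**Figure D4:**
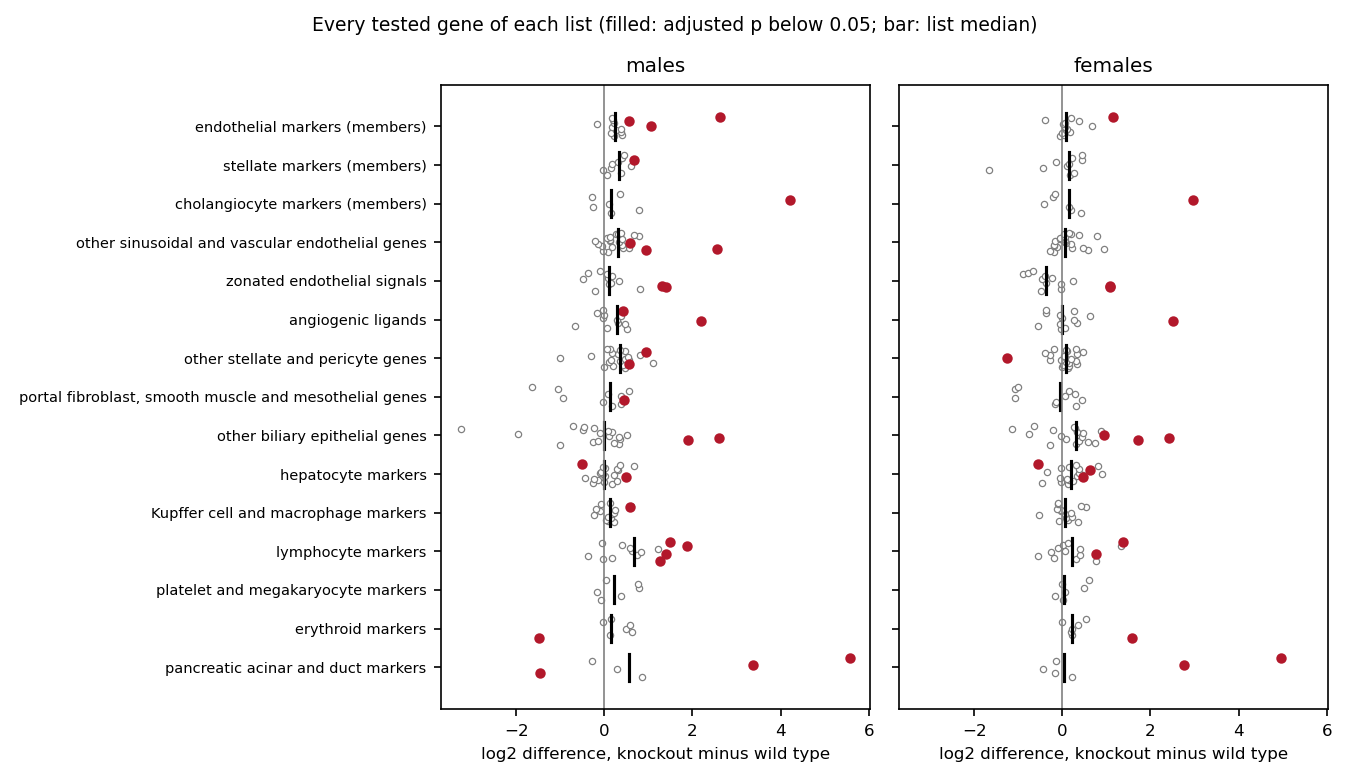
Log2 difference (horizontal axis, knockout minus wild type) of every tested gene in each of 15 marker lists, males on the left and females on the right; filled points have an adjusted p below 0.05 and the bar is the list's median. Most endothelial and stellate genes sit just right of 0 in males, with medians of 0.24 to 0.36 in the 4 general endothelial and stellate lists, and nearer to 0 in females.

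Genes of the neighbouring pancreas were read beside the duct markers. Of 6 tested (of 12 listed), Pnliprp1, a lipase-related protein of pancreas, rose at least 15.0-fold in males and at least 7.10-fold in females (limma, adjusted p = 0.003 and 0.0073), and the elastase gene Cela3b rose by 3.37 ± 0.46 in males (adjusted p = 0.00996) and at least 6.11-fold in females (adjusted p = 0.0261). Pnliprp1 was well above background on 0 wild-type arrays, and Cela3b on 1 wild-type male and 0 wild-type female arrays. Both genes were well above background on both arrays of each knockout group, so they were tested only through the knockout groups. Cela1 fell by 1.47 ± 0.23 in males (limma, adjusted p = 0.0144). The Cela3b call in females was lost in 6 of the 8 fits that left out 1 array and under 3 other alternatives (adjusted p at most 0.1), that in males without male knockout replicate 2 (0.0667), and the Cela1 call without male knockout replicate 1 or 2 (at most 0.0811). The defining acinar genes Prss1, Cpa1 and Pnlip and the duct gene Pdx1 were well above background on 0 arrays. The list's summed signal was 43.7 to 62.5 in wild-type males, 25.6 to 29.5 in knockout males, 25.9 to 28.4 in wild-type females and 25.1 to 25.7 in knockout females. Most of that sum came from the Cela1 probe, and the part of pancreatic RNA in the Prom1 result was not tested.

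Markers of the other liver cells were given the same reading. Of 15 macrophage and Kupffer cell genes, the integrin Itgam rose in males (0.59 ± 0.12, limma, adjusted p = 0.0289), and the median was 0.13 in males and 0.05 in females. Their summed signal was 153 to 161 in wild-type males and 165 to 201 on the 6 other arrays. The 1 male call among these 15 was near the 5.77% of all genes called higher in males. Of 14 lymphocyte genes, 4 rose in males and 2 in females, with medians of 0.69 and 0.23. Over all genes, 5.77% were called higher in males and 3.48% in females. Sdc1, a syndecan of plasma cells that hepatocytes also make, rose by 1.48 ± 0.11 in males (adjusted p = 0.00117) and 1.37 ± 0.11 in females (adjusted p = 0.00234). The B cell receptor component Cd79b rose by 1.39 ± 0.14 (adjusted p = 0.00332) and 0.77 ± 0.14 (adjusted p = 0.0323). Ms4a1, a B cell surface protein, was also called in males (1.87) and was named after its value was seen. In males 11 of the 14 differences were above 0. The exceptions were the B cell gene Pax5 (-0.05) and the T cell genes Cd3e (-0.03) and Cd4 (-0.38), also named after their values were seen. The list's summed signal was 44.7 to 49.4 in wild-type males, 56.8 to 63.7 in knockout males, 31.5 to 45.6 in wild-type females and 50.2 to 51.7 in knockout females. That sum includes Sdc1, whose mean level was 3.33 in wild-type and 4.81 in knockout males, and 3.51 and 4.88 in females. The sum without Sdc1 was not taken. The calls of Itgam in males and Cd79b in females were each lost in 6 of the 8 fits that left out 1 array.

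Among 20 hepatocyte genes, 1 rose and 1 fell in males, and 2 rose and 1 fell in females. Over all genes, 5.77% were called higher and 4.93% lower in males, so both male counts were near the background. In females the shares of all genes were 3.48% and 2.45%. Prothrombin (F2) rose by 0.49 ± 0.09 in males and 0.46 ± 0.09 in females (limma, adjusted p = 0.0241 and 0.0391), and transthyretin (Ttr) fell by 0.50 ± 0.10 (adjusted p = 0.0312) and 0.56 ± 0.10 (adjusted p = 0.0331). Hpd, an enzyme of tyrosine breakdown, rose in females by 0.62 ± 0.12 (adjusted p = 0.0458). The medians were -0.00 and 0.20. Each of these hepatocyte calls was lost in at least 6 of the 8 fits that left out 1 array. The list's summed signal was 10900 to 11300 in wild-type males, 11800 to 12100 in knockout males, 9910 to 10200 in wild-type females and 10700 to 11800 in knockout females. The part of macrophage, lymphocyte or hepatocyte RNA in the members' differences was not tested.

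The second comparison set males against females within a genotype. In wild type, 0 of the 31 members were called by limma, where 0.975% of all genes were, and 6 endothelial, 2 stellate and 3 cholangiocyte members had an unadjusted p below 0.05. Over all genes, 4783 of 26551 had such a p, a share near the stellate 2 of 10. The medians of males minus females were -0.25, -0.41 and -0.57, against 0.02 for all genes, and the difference was below 0 in 13 of 14 endothelial, 8 of 10 stellate and 6 of 7 cholangiocyte members. Both male arrays lay below both female arrays for 12, 6 and 4 members, where 21.4% of all genes did so. This direction was not particular to the members. The difference was below 0 in 20 of 23 further sinusoidal and vascular, 13 of 13 zonated endothelial and 19 of 22 further stellate genes. It was below 0 in 12 of 15 macrophage, 9 of 14 lymphocyte, 11 of 20 further biliary and 1 of 20 hepatocyte genes. Among members, the nearest to a call were Prom1 (-1.86 ± 0.29, adjusted p = 0.0557), Pdgfra (-0.57 ± 0.12, adjusted p = 0.0928), Tek (-0.49 ± 0.10, adjusted p = 0.0945) and Krt7 (-1.02 ± 0.23, adjusted p = 0.113). Prom1 was well above background on 0 of 2 wild-type male and 1 of 2 wild-type female arrays, so its difference lay near background. Krt7 was well above background on 1 of 2 wild-type male arrays.

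Among knockout arrays, 0 of 31 members were called between the sexes, where 0.0753% of all genes were. The medians were 0.02 for endothelial and -0.03 for stellate members, with 6 of 14 and 5 of 10 differences below 0. Cholangiocyte members kept a median of -0.45, with 6 of 7 below 0, led by Krt19 at -0.91 ± 0.37 (limma, adjusted p = 0.826). An unadjusted p below 0.05 was seen for 2 endothelial, 0 stellate and 2 cholangiocyte members, and for 1594 of all 26551 genes. Vwf was higher in knockout males than in knockout females by 0.83 ± 0.16 (adjusted p = 0.538), the reverse of its order in wild type (-0.66 ± 0.16, adjusted p = 0.13).

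The interaction asked whether the knockout difference itself differed between the sexes. It called 0 of 31 members, where 0.188% of all genes were called, and 2 endothelial, 2 stellate and 1 cholangiocyte member had an unadjusted p below 0.05 (Vwf, Tek, Pdgfra, Hand2 and Prom1). Over all 26551 genes, 2222 had such a p. The estimate was above 0 in 12 of 14 endothelial, 8 of 10 stellate and 4 of 7 cholangiocyte members. The calls in males and not in females of Lyve1 (interaction 0.40 ± 0.21, limma, adjusted p = 0.681), Stab2 (0.16 ± 0.15, adjusted p = 0.817) and Pdgfrb (0.24 ± 0.21, adjusted p = 0.812) are therefore not shown to differ between the sexes.

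Set over the 4 groups, wild-type males held the lowest mean for 24 of 31 members: 12 of 14 endothelial, 7 of 10 stellate and 5 of 7 cholangiocyte. Over all genes tested, 23.4% had their lowest mean there. Des, Krt7, Epcam and Prom1, counted among the 24, passed the filter only through groups other than wild-type males, which could favour their place in this count. Epcam passed only through knockout females and Gfap only through wild-type females, the group where each was highest. With probes required well above background on all 8 arrays, the count was 19 of 25, and the share of all genes 22.0%. The highest mean was in knockout females for 13 members, in knockout males for 10, in wild-type females for 7 and in wild-type males for 1 (Sox9). The knockout in males and the sex difference in wild type share the wild-type male arrays, so the male medians above 0 and the wild-type medians below 0 are not separate observations. Over the other ways of processing the arrays and leaving out 1 array at a time, the count ran from 19 (of 25 tested) to 27 (of 31), and the share of all genes from 19.0% to 26.8%.

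On single arrays the same order held for 17 members, for which both wild-type male arrays lay below all 6 others, where 8.59% of all genes did so. There were 11 endothelial members (Cdh5, Kdr, Vwf, Eng, Emcn, Egfl7, Stab1, Stab2, Lyve1, Fcgr2b and Clec4g), 4 stellate (Pdgfrb, Pdgfra, Lhx2 and Vim) and 2 cholangiocyte (Spp1 and Prom1). Of these, Prom1 was tested only through the knockout groups. The endothelial exceptions were Pecam1, Tek and Tie1. The summed endothelial signal was 128 to 131 in wild-type males, 151 to 161 in wild-type females, 170 to 177 in knockout males and 168 to 173 in knockout females. The stellate sum was 18.8 to 19.3, 20.3 to 20.7, 22.6 to 23.6 and 23.0 to 24.6 in the same order. The cholangiocyte sum was 5.08 to 5.89, 6.91 to 9.01, 6.51 to 7.31 and 7.01 to 8.0. These sums follow the brightest probes of each list.

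Individual arrays were compared by the median of each list after subtracting every member's mean over 8 arrays. The endothelial median was -0.14 and -0.28 on the wild-type male arrays and between -0.02 and 0.11 on the 6 others. The stellate median was -0.15 and -0.41 against -0.04 to 0.26, and the cholangiocyte median -0.33 and -0.49 against -0.07 to 0.40. The same median over all genes was 0.03 on both arrays and between -0.02 and 0.01 on the others. Wild-type male replicate 2 was the lower of the pair in all 3 lists. That array also had the fewest spots well above background (33603) and the lowest 75th percentile (127), and replicate 1 had the most spots (36377); the part of these in the lists' order was not tested.

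**Figure D5:**
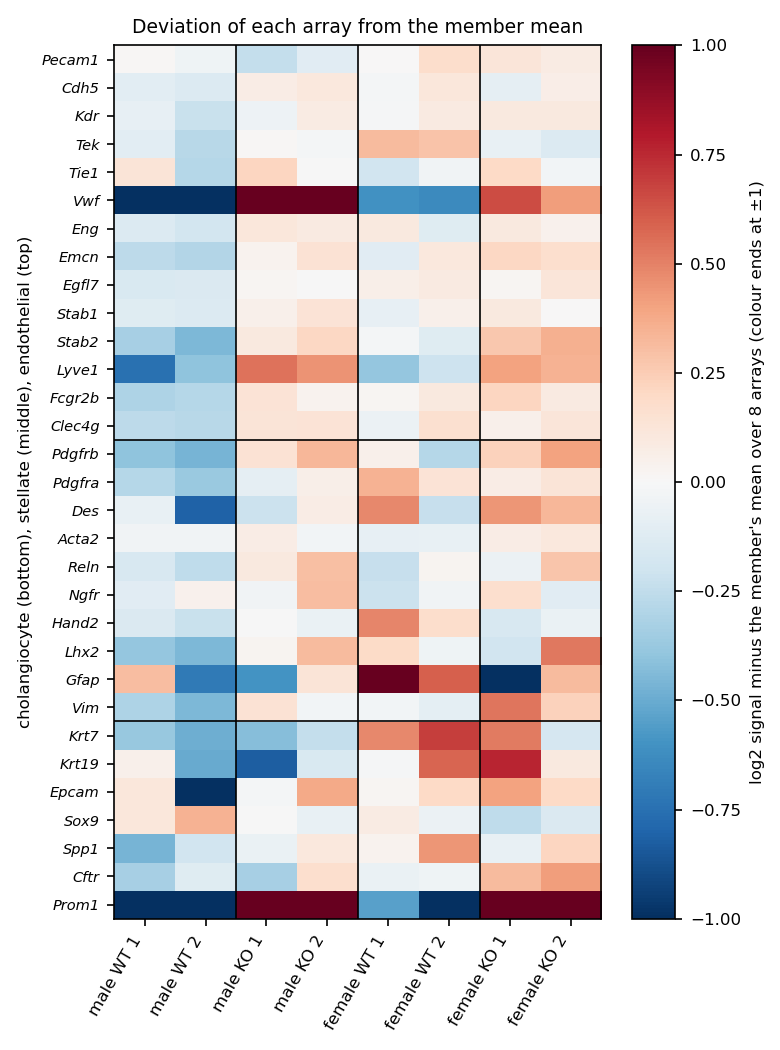
Log2 signal minus the member's mean over 8 arrays (colour, ending at 1 above and below) for the 31 members tested (rows, endothelial at the top, stellate in the middle, cholangiocyte at the bottom) on each array (columns, WT wild type, KO knockout). The 2 male wild-type columns are blue in most rows, and the widest ranges are those of Vwf and Prom1.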

How the data were processed

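Total RNA of whole liver was labelled with Cy3 and hybridised to 1-colour Agilent arrays, 1 per sample, per the labels' protocols. The deposited intensity columns were, per the file headers, written by Feature Extraction 11.5.1.1 (9.1.3.1 in the submitters' processing notes): a processed signal, background-subtracted by the authors' software, and raw medians of spot and background. The deposited value table holds log2 values and equalled the log2 processed signal minus 1 constant per array (6.99 to 7.30) for 100% of probes within 0.01, with no centring per gene.

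Outlier spots (55 to 139 per array) were left out and spots of 1 probe averaged. From 56605 probes, 32994 were named through RefSeq accessions (gene list of GRCm38.p6, 22911 symbols) and 23611 kept their identifier. The array's 75th percentile was subtracted from each log2 value. Probes well above background on the 2 arrays of some group were kept (33580 probes), and the kept probe with the highest mean stood for its gene (5627 genes had several). Means of the 4 groups were fitted with limma 3.58.1 (R 4.3.3) to the 8 arrays (4 residual and 2.075 prior degrees of freedom, median SE 0.162), with Benjamini-Hochberg over the 26551 features; 52 of them lacked a value on some array. "At least" folds use, for a group nowhere well above background, the dimmest well-above-background signal of each array as a floor. The number of arrays limits the precision. The fit was tested on simulated data.

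The members and all lists were chosen with earlier results of these data known. All 32 members, Bcl6, and up to 3 called genes of each other list with the smallest adjusted p in either knockout comparison are named, except that 1 called gene is not reported here. Alternatives were quantile or median scaling, normexp on raw median intensities (no mean intensities are in the files used), 2 other filters, averaged probes, the value table, a fit of only the groups compared, replicate number as a block, and leaving out each array; the count of members lowest in wild-type males was taken after the data were seen. Files were read, motifs searched and plots drawn in Python 3.11.15 (pandas 2.3.3; numpy 2.4.6; matplotlib 3.10.9). The promoter table holds no window for Vwf, Lyve1, Pdgfrb, Pecam1, Cdh5, Krt19 and Sox9.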

Additional observations from a re-analysis of the deposited data

Results flagged for a closer look

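Alas2, the erythroid form of the first enzyme of haem synthesis and 1 of the 7 erythroid markers read beside the members, differed between the sexes in its response to the knockout. It read 5.03 and 5.23 in wild-type males, 3.78 and 3.51 in knockout males, 1.83 and 2.30 in wild-type females, and 3.84 and 3.47 in knockout females. The difference was -1.49 ± 0.21 in males and 1.59 ± 0.21 in females, and the interaction of -3.08 ± 0.30 passed the threshold (limma, adjusted p = 0.0353). It was lost without a filter on dim probes (adjusted p = 0.118), with replicate number as a block (0.0974) and in 7 of the 8 fits that left out 1 array, with an adjusted p of at most 0.159 and differences of -3.32 to -2.85. No other erythroid marker tested was called for the knockout in either sex.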

How the results depend on the processing

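No called value changed direction. With probes required well above background on all 8 arrays, which leaves 3 cholangiocyte members and drops Prom1, the cholangiocyte medians were -0.26 in males and -0.17 in females and 0 of these members were called in either sex. Endothelial calls in females were 3 with normexp, 0 without a filter on dim probes, 2 with the filter on all 8 arrays and 0 with only the groups compared; stellate calls in males were 0 without a filter, with only the groups compared and with the replicate block. With normexp the stellate median in males was 0.14, and 1 member was called between wild-type sexes (Fcgr2b). With probes averaged per gene, 2 cholangiocyte members were called in males (Prom1 and Sox9) and 1 member between wild-type sexes (Prom1).

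Leaving out 1 array at a time gave 1 to 4 endothelial calls in males (1 without either knockout male), 0 to 2 in females, 0 to 1 stellate calls in males, 1 to 2 cholangiocyte calls in males (Epcam joined without wild-type male replicate 1) and 0 to 1 calls between wild-type sexes (Prom1, without wild-type female replicate 2). The medians ranged over 0.23 to 0.33 in males and 0.04 to 0.14 in females for endothelial members, over 0.23 to 0.46 and 0.08 to 0.19 for stellate members, and for cholangiocyte members over 0.00 to 0.40 in males and -0.14 to 0.29 in females (the lowest without wild-type female replicate 1). Deviations of same-numbered arrays from their group means had correlations of -0.00194 to 0.102 between groups. With 2 arrays per group the deviations of a group mirror each other, so this cannot show whether the numbers pair the samples. Apart from the stellate count in males, the replicate block changed no count of members called. Normexp moved the median of all genes by 0.0439 in males and other scalings by less. Of the values answering a comparison, 221 were labelled unchanged, 18 counts weaker, 9 counts stronger and 6 medians moved. A count within a set ratio of the main count was labelled unchanged. The 221 thus include male endothelial counts of 2 (no filter on dim probes) and 4 (normexp) against 3 in the main fit. A median was labelled unchanged if it moved by less than the spread of the list median between arrays of a group. Dim probes (Gfap, Epcam, Krt7, Prom1) and 2 arrays per group limit what could be called.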
